A study of Mus musculus with 21 samples.

Results

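The removal of tryptophan from the diet was examined within 1 genotype, by setting 2 liver RNA-seq libraries of WT mice on a tryptophan-free diet (noTrp) against 3 of WT mice on the control diet (CTR). These 5 libraries, of 21 in the series, were taken by their sample titles, which give genotype, diet and replicate number. WT is the label of the comparison genotype for knockouts (KO) of *Cse* (*Cth* in the annotation), which encodes cystathionine γ-lyase, an enzyme that makes cysteine. The study's text describes the comparison animals as heterozygous, *Cse*+/−, so WT does not state that both alleles were intact. Per the study's methods the *Cse* line was on a mixed 129/C57BL/6 background, only males were used for RNA-seq, and mice were at least 9 weeks old. All animals were calorie restricted, first for 3 days on the control diet and then for 2 days on either the control or the depleted diet, so the controls carried the same restriction. The depleted diet was a defined amino acid diet with tryptophan left out and the remaining amino acids raised in proportion. In the series the tryptophan-free diet serves to tell responses to the loss of cysteine from those to the loss of an essential amino acid, and in WT animals it shows the second on its own. The WT noTrp group analysed here is smaller than the group size that the study's methods state. For comparison, 4 KO CTR, 5 KO noTrp and 4 WT libraries on a cysteine-free diet (noCys) were also used.

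Tryptophan is an essential amino acid that mammals cannot make. When a cell lacks an amino acid, uncharged tRNA activates the kinase GCN2, which phosphorylates the initiation factor eIF2α, and translation of the transcription factor ATF4 rises. ATF4 switches on the integrated stress response (ISR), which includes amino acid transporters and the enzymes of serine and asparagine synthesis. The liver also breaks tryptophan down, through tryptophan dioxygenase (*Tdo2*) and the kynurenine pathway to NAD. Hepatocytes also respond to food intake. Insulin and the sterol-sensing factors of the SREBP family promote lipid synthesis, while glucagon acts through cyclic AMP and CREB on gluconeogenesis.

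Between WT noTrp and WT CTR, 459 of 14370 genes tested (3.19%) passed the threshold of an adjusted p under 0.05, 244 (1.7%) higher without tryptophan and 215 (1.5%) lower. Of these, 96 were higher and 94 lower by over 2-fold. Most of the sterol synthesis pathway fell, a set of immediate early genes rose, and 1 of 13 and 2 of 28 genes of the ISR lists and 0 of 31 of tryptophan metabolism were called. The 2 noTrp libraries differed more from each other than the replicates of any other group used. Their log2 CPM (each library's counts divided by its TMM-adjusted total, so that libraries of unequal depth compare) correlated at 0.964, against 0.971 to 0.982 between WT CTR libraries and 0.973 or more within the other groups. Replicate 1 stood farther from the controls, at 0.946 to 0.969, than replicate 2, at 0.966 to 0.974. With noTrp replicate 1 alone against the controls, 728 of 15019 genes were called (4.85%), 2.86% higher and 1.99% lower. With noTrp replicate 2 alone, 99 of 15006 were called (0.66%), 0.353% higher and 0.307% lower. Without WT CTR replicate 1, 2 or 3 the count was 171, 296 or 146, so every one of the 5 libraries moved it by over 1.5 times. Scaling by library totals alone gave 502 calls of which 78.1% were higher, against 53.2% of the 459, and set the median of all genes at 0.09 in place of 0.00 (log2).

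The values of each noTrp library behind these calls are as follows, and since the calls were made on both libraries together, their agreement in sign and lack of overlap are largely set by that choice. For 458 of the 459, the log2 fold change had the same sign with each library alone, and for 444 the 2 noTrp libraries lay entirely above or below the 3 controls. Among all genes tested, 4404 (30.6%) did not overlap between the groups. The change was larger with replicate 1 for 166 of the 244 genes called higher and for 131 of the 215 called lower. The median log2 fold change of the genes called higher was 0.90 with replicate 1 alone and 0.67 with replicate 2 alone, and that of the genes called lower was −0.93 and −0.86. These 2 comparisons share their control libraries.

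**Figure D1:**
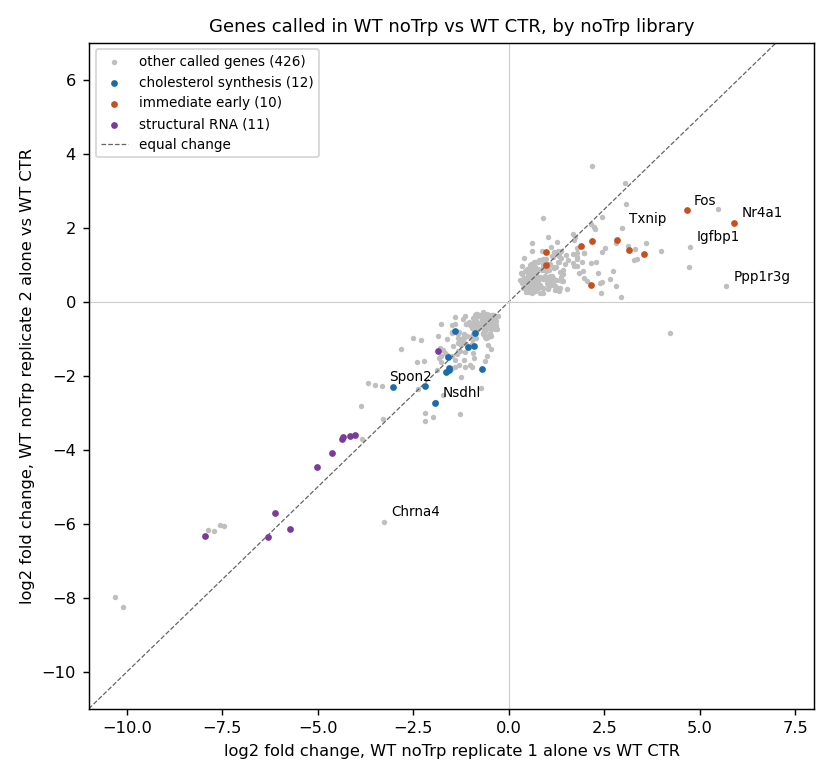
Each point is 1 of the 459 genes called in WT noTrp against WT CTR, with its log2 fold change from noTrp replicate 1 alone (x axis) and from noTrp replicate 2 alone (y axis), both against the same 3 WT CTR libraries; the dashed line marks equal change. Nr4a1, Igfbp1 and Ppp1r3g lie far below the line on the right, while other immediate early genes lie closer to it or, as Ier2 and Zfp36l1, just above it, cholesterol synthesis genes lie near it, and structural RNA genes form the group at the lower left.

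Cholesterol synthesis had more genes called than any other of the 33 lists examined. Of its 20 genes tested, 12 fell and none rose, all 20 had a log2 fold change below 0, and in 17 both noTrp libraries lay below all 3 controls, where 1.5% of all genes were called lower and 15.3% lay below all controls. The median log2 fold change was −1.10, against 0.00 over all genes tested, with −1.0 from replicate 1 alone and −1.21 from replicate 2 alone. The count called was 6 without WT CTR replicate 1, 10 without replicate 2 or 3 of that group, 6 with noTrp replicate 1 alone and 3 with noTrp replicate 2 alone. It was 2 with limma-voom and quality weights and 1 in a fit of the 5 compared libraries alone.

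The promoters of a pair of these genes are shown because sterol control acts there, through binding of SREBP to sterol regulatory elements, usually beside NF-Y at a CCAAT box. They are the 250 bases before the RefSeq start on GRCm38.p6, read on the gene's own strand. *Hmgcs1* (HMG-CoA synthase, of the early steps) lies on the plus strand and the stretch is chr13:119690101-119690350. *Nsdhl* (a sterol dehydrogenase of the demethylation steps) lies on the plus strand of chromosome X and the stretch is chrX:72918271-72918520. Capitals mark CCAAT on either strand (ATTGG on the strand shown) and the sterol regulatory element core TCACNCCAC.

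Hmgcs1: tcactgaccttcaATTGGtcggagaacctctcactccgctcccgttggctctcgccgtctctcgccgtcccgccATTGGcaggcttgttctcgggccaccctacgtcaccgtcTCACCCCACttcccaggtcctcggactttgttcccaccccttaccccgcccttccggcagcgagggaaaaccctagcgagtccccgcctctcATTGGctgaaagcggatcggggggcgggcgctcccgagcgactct
Nsdhl: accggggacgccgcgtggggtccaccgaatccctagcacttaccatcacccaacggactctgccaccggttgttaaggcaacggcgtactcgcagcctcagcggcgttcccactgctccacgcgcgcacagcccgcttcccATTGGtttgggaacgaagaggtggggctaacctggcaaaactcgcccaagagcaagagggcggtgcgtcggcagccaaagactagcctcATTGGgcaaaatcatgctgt

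The *Hmgcs1* stretch holds TCACNCCAC at −137 to −129 and 3 CCAAT boxes, and that of *Nsdhl* holds 2 CCAAT boxes, at −109 to −105 and −20 to −16. Of the 12 genes called, 10 had a promoter in the RefSeq table (13 promoters), and 10 of these 13 held CCAAT, while 1 held TCACNCCAC. Among all 32851 mouse promoters of this length, 33.8% held CCAAT and 1.05% held TCACNCCAC, on either strand. A match of letters describes the window and was not tested as a binding site.

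*Nsdhl* read 41.0, 36.4 and 31.6 CPM in the controls and 9.51 and 5.45 CPM in noTrp, a log2 fold change of −2.27 ± 0.28 (SE, n = 3 and 2 libraries; adjusted p = 0.00053), and it was called with each noTrp library alone. *Sqle*, squalene epoxidase, read 32.7, 22.3 and 27 CPM in the controls and 5.90 and 5.6 CPM in noTrp (log2 fold change −2.25 ± 0.45, adjusted p = 0.012). In both genes the noTrp libraries were far below the lowest control. *Idi1*, the isopentenyl diphosphate isomerase, was weakly expressed, at 4.97, 4.48 and 3.95 CPM in the controls, and fell to 0.536 and 0.895 CPM (log2 fold change −2.64 ± 0.57, adjusted p = 0.019). *Hmgcs1* read 183, 113 and 136 CPM in the controls and 48.1 and 41.6 CPM in noTrp (log2 fold change −1.68 ± 0.34, adjusted p = 0.012). The other genes called were *Fdps*, *Msmo1*, *Cyp51*, *Pmvk*, *Tm7sf2*, *Sc5d*, *Mvk* and *Dhcr7*, which fell by 0.88 to 1.77 on the log2 scale, and *Dhcr7* was called in 0 of the 5 fits that leave out 1 library. *Sqle*, *Idi1* and *Hmgcs1* lost their call with noTrp replicate 2 alone, where their log2 fold changes were −2.28, −2.31 and −1.79. The exons of *Cyp51*, *Tm7sf2*, *Idi1*, *Fdps* and *Hmgcs1* overlap those of other annotated genes, and the strand setting of the counting is not given in the sources used here.

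**Figure D2:**
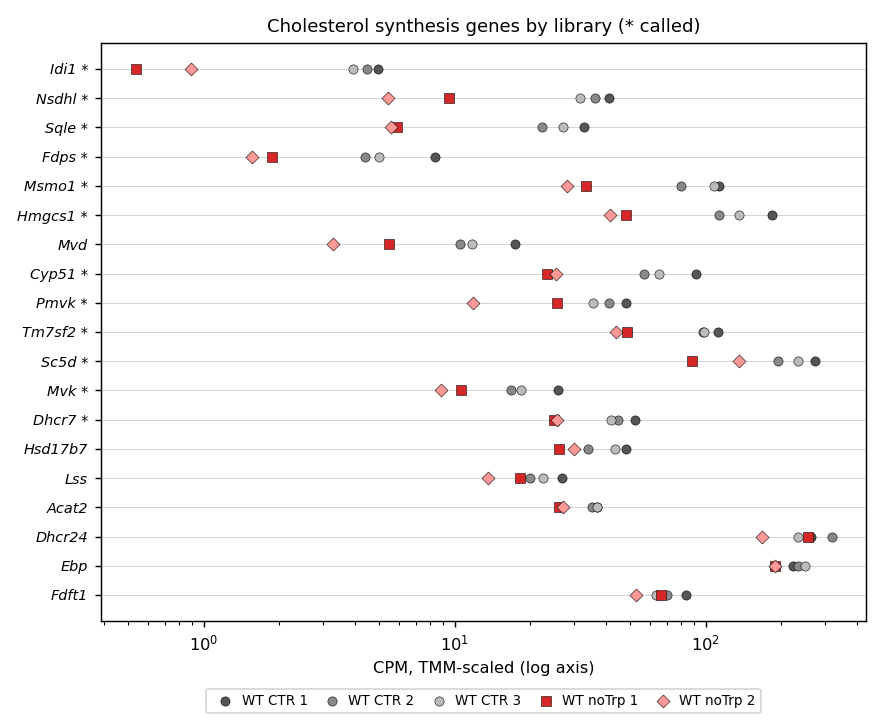
TMM-scaled CPM on a log axis of 19 of the 20 cholesterol synthesis genes tested, 1 row per gene in the order of the log2 fold change, with 3 WT CTR libraries as circles and the WT noTrp libraries as a square (replicate 1) and a diamond (replicate 2); an asterisk marks the 12 genes called. In 17 rows both noTrp libraries lie to the left of all controls.

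Genes that control or use the sterol pathway gave 2 calls among 12 tested, both lower, where 1.5% of all genes were, with a median log2 fold change of −0.34 over the list. *Stard4*, a cholesterol transfer protein, read 143, 96.8 and 125 CPM in the controls and 44.2 and 52.7 CPM in noTrp (log2 fold change −1.33 ± 0.21, adjusted p = 0.0039). *Stard4* kept its call in all 5 fits that leave out 1 library, and *Srebf2*, which encodes SREBP2, did not pass the test (log2 fold change −0.32 ± 0.14).

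In fatty acid synthesis, 4 of 24 genes fell and 1 rose, where 1.5% of all genes fell and 1.7% rose, and the median was −0.23. *Elovl3*, an elongase of very long chain fatty acids, read 127, 90.4 and 104 CPM in the controls and 8.24 and 23.4 CPM in noTrp (log2 fold change −2.76 ± 0.45, adjusted p = 0.0043), and with noTrp replicate 2 alone its adjusted p was 0.054. Its exons overlap those of *Pitx3*. *Acss2*, which makes acetyl-CoA from acetate, fell by 1.15 ± 0.19 on the log2 scale (adjusted p = 0.0044), and *Elovl5* and *Fads1*, of polyunsaturated fatty acid synthesis, fell by 1.32 and 0.80. *Dgat1*, which completes triglyceride synthesis, rose by 0.53, a call that was lost whichever of the 5 libraries was left out. *Scd1*, the stearoyl-CoA desaturase, split the noTrp libraries. It read 8595, 8333 and 4913 CPM in the controls, 5889 CPM in noTrp replicate 1 and 848 CPM in replicate 2, and was not called (adjusted p = 0.36). None of 32 genes of fatty acid oxidation and ketogenesis was called.

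A list of genes called with both noTrp libraries together and with each alone held 33 members, 18 higher and 15 lower (0.23% of the genes tested). All 33 were also called in the 3 fits that left out 1 WT CTR library. DESeq2 called 32 of them, limma-voom with quality weights 19, and a fit of the 5 compared libraries alone 0. No other of the 459 genes was called in all 5 fits that left out 1 library, so each other call given here was lost in at least 1 such fit. Among the falls was *Chrna4*, a nicotinic acetylcholine receptor subunit, at 14.7, 8.03 and 6.62 CPM in the controls and 1.00 and 0.149 CPM in noTrp (log2 fold change −4.02 ± 0.71, adjusted p = 0.006). *Spon2*, a secreted matrix protein, read 15.7, 13.3 and 13.6 CPM in the controls and 1.41 and 2.91 CPM in noTrp (log2 fold change −2.72 ± 0.29, adjusted p = 0.00010). Both genes had control libraries several times above either noTrp library. *Aldoc*, a fructose-bisphosphate aldolase, fell by 1.42, *Tlcd2* by 1.51, *Tm7sf2* by 1.15 and *Pnkd* by 0.91 on the log2 scale. Others lower were *Cyp4a12a*, *Nsdhl*, *Stard4*, *Acss2*, *Pea15a*, *Acbd5*, *Acat3* and *Slc25a1*, the mitochondrial citrate carrier. *Tlcd2* overlaps the host gene of *Mir22*, and *Acss2* overlaps 3 other annotated genes.

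Among the rises of that list was *Txnip*, an arrestin-like protein that binds thioredoxin and limits glucose uptake. It read 63.8, 55.5 and 85.1 CPM in the controls and 527 and 270 CPM in noTrp (log2 fold change 2.55 ± 0.38, adjusted p = 0.0034), and its exons overlap those of *Gm15441*. *Por*, the electron donor of microsomal cytochromes P450, read 354, 493 and 520 CPM in the controls and 1570 and 1056 CPM in noTrp (log2 fold change 1.53 ± 0.22, adjusted p = 0.0031). *Cyp26b1*, which clears retinoic acid, read 13.4, 11.8 and 12.2 CPM in the controls and 29.7 and 31.4 CPM in noTrp (log2 fold change 1.29 ± 0.24, adjusted p = 0.0081). In these 3 genes no noTrp library overlapped the controls, and for *Cyp26b1* the 2 noTrp libraries were nearly equal. *Klf11*, a Krüppel-like transcription factor, read 8.04, 5.87 and 6.50 CPM in the controls and 16.7 and 15.9 CPM in noTrp (log2 fold change 1.26 ± 0.19). The splicing factor *Srrm4* rose by 1.73, *Rhbdf2*, which helps mature the protease ADAM17, by 1.45, the RNA-editing enzyme *Adarb1* by 1.19 and *Plekhg5* by 1.18. The others higher were *Socs3*, *Ier2*, *Eva1c*, *Egfl7*, *Stab1*, *Tmem41a*, *Mnt*, *Kdm6b*, *Slc12a4* and *Gemin2*.

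Immediate early genes are switched on within minutes of a signal, without new protein synthesis. Of 35 tested, 10 rose and none fell, 34 had a log2 fold change above 0, and in 18 both noTrp libraries lay above all 3 controls, where 1.7% of all genes were called higher and 15.3% lay above all controls. The median log2 fold change was 0.99, but 1.22 with noTrp replicate 1 alone and 0.53 with replicate 2 alone. The count called was 15 with replicate 1 alone and 2 with replicate 2 alone, and 9, 8 or 7 without WT CTR replicate 1, 2 or 3. A fit of the 5 compared libraries alone gave 1, and limma-voom 2. Between WT noTrp and WT noCys 2 of the 35 were called, and the median log2 difference was 0.48.

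The promoters of 3 of the genes called, all on GRCm38.p6, are shown with the cAMP response element, the site of CREB, in capitals, as the palindrome TGACGTCA or its short form TGACG on either strand (CGTCA on the strand shown). *Nr4a1* (an orphan nuclear receptor) lies on the plus strand and its stretch is chr15:101266596-101266845, before a RefSeq start that lies inside the gene as GENCODE annotates it. *Btg2* (an antiproliferative protein) lies on the minus strand, with chr1:134079156-134079405, and *Fos* (a subunit of AP-1) on the plus strand, with chr12:85473640-85473889.

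Nr4a1: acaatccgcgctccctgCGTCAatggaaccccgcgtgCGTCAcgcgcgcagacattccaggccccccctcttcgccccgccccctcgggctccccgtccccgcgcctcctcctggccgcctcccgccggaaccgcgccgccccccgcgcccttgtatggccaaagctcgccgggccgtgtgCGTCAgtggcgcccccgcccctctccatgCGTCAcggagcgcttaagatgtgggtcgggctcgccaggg
Btg2: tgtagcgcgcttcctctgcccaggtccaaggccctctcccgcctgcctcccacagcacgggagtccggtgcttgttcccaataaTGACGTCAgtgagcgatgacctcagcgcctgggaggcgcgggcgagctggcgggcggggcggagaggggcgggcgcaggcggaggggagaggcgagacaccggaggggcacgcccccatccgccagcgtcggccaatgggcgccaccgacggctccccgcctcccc
Fos: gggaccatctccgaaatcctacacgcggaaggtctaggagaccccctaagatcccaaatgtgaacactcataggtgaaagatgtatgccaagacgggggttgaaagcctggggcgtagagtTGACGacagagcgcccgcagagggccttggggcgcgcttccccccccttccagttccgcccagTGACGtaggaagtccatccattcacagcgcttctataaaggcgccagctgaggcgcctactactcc

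The *Nr4a1* stretch holds 4 half-sites, that of *Fos* holds 2, and that of *Btg2* holds the whole palindrome, in which 2 half-sites overlap. Of the 10 genes called, 8 had a promoter in the table (8 promoters), and 5 of them held TGACG, 2 held TGACGTCA, 1 (*Socs3*) held the STAT element TTCNNNGAA and 0 held a CArG box, the site of serum response factor. The half-site lies within the palindrome, so the first count includes the second. Among all mouse promoters of this length, 17.8% held TGACG, 1.55% TGACGTCA, 7.02% TTCNNNGAA and 1.47% a CArG box. Among the immediate early genes tested, called or not, 14 of 34 promoters held TGACG. These counts cover only the stretch shown, so sites farther from the start were not looked for. No match was tested as a binding site.

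*Nr4a1* changed most. It read 3.60, 1.16 and 0.348 CPM in the controls, 101 CPM in noTrp replicate 1 and 7.46 CPM in replicate 2, a log2 fold change of 4.99 ± 0.81 (adjusted p = 0.004). *Fos* read 0.317, 0.772 and 0.580 CPM in the controls and 14.6 and 3.21 CPM in noTrp (log2 fold change 3.94 ± 0.83, adjusted p = 0.016). *Btg2* read 10.1, 11.5 and 11.0 CPM in the controls and 126 and 26.8 CPM in noTrp (log2 fold change 2.82 ± 0.62, adjusted p = 0.019). In all 3 both noTrp libraries lay above the controls, with replicate 1 several times higher than replicate 2. *Dusp1*, a MAP kinase phosphatase, read 29.2, 21.2 and 31.8 CPM in the controls and 240 and 72.4 CPM in noTrp (log2 fold change 2.52 ± 0.49, adjusted p = 0.010). *Socs3*, the feedback inhibitor of cytokine signalling through STAT3, read 11.3, 6.41 and 7.78 CPM in the controls and 60.2 and 26.9 CPM in noTrp (log2 fold change 2.37 ± 0.33, adjusted p = 0.0023). *Ier2* was higher in replicate 2, at 63.7 CPM, than in replicate 1, at 49.1 CPM, against 22.5, 27.8 and 25.1 CPM in the controls. *Socs3* and *Ier2* were the 2 genes of the list called with each noTrp library alone. With noTrp replicate 2 alone *Nr4a1* had a log2 fold change of 2.14 and an adjusted p of 0.19, and *Btg2* of 1.3 and 0.39. *Btg2* was called in 1 of the 5 fits that leave out 1 library, the one without noTrp replicate 2. The rest called were *Junb*, *Egr1*, *Fosl2* and *Zfp36l1*, which rose by 0.97 to 1.94. Of these, *Fosl2* read 39.9 CPM in noTrp replicate 1 and 12.4 CPM in replicate 2, with log2 fold changes of 2.15 and 0.46 from each alone. *Junb* overlaps *Prdx2*, and *Dusp1* overlaps *Ergic1*.

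**Figure D3:**
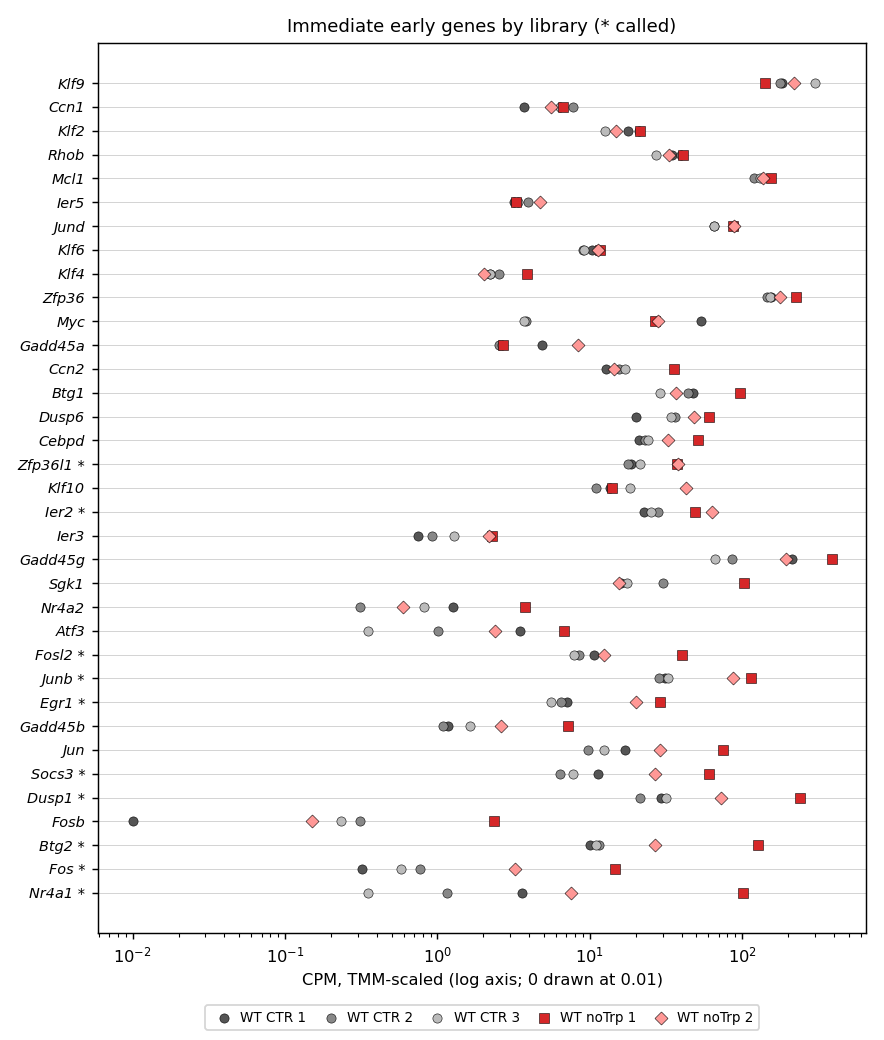
TMM-scaled CPM on a log axis of the 35 immediate early genes tested, 1 row per gene in the order of the log2 fold change, with 3 WT CTR libraries as circles and the WT noTrp libraries as a square (replicate 1) and a diamond (replicate 2); an asterisk marks the 10 genes called, and the 1 library without a Fosb read is drawn at 0.01. In the lowest rows the square lies far to the right of the controls and the diamond lies between.

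The 2 noTrp libraries also differed in genes of glucose and glycogen metabolism. Of 32 tested, 4 rose, where 1.7% of all genes did, and none fell. With noTrp replicate 1 alone 12 were called, all higher (2.86% of all genes were), with replicate 2 alone 0, and without any 1 of the WT CTR libraries 1. *Ppp1r3g*, a glycogen-targeting subunit of protein phosphatase 1, read 7.93, 7.26 and 11.7 CPM in the controls, 459 CPM in noTrp replicate 1 and 11.9 CPM in replicate 2 (log2 fold change 4.73 ± 1.15, adjusted p = 0.031). *Igfbp1*, an insulin-repressed binding protein of insulin-like growth factors, read 27.7, 82.9 and 110 CPM in the controls, 1945 CPM in replicate 1 and 206 CPM in replicate 2 (log2 fold change 3.87 ± 0.86, adjusted p = 0.019). For *Ppp1r3g* the second noTrp library was at the upper edge of the controls, and with it alone the log2 fold change was 0.42 (adjusted p = 0.91), while that of *Igfbp1* was 1.49 (adjusted p = 0.44). *Sik1*, a CREB-induced kinase, read 12.4, 17.8 and 23.0 CPM in the controls and 173 and 47.2 CPM in noTrp (log2 fold change 2.64 ± 0.44, adjusted p = 0.0044). *Slc37a4*, the glucose-6-phosphate transporter, rose by 0.62 ± 0.17 (adjusted p = 0.043). *Pck1*, the gluconeogenic carboxykinase, and *G6pc*, the glucose-6-phosphatase, did not pass the test, with log2 fold changes of 0.62 ± 0.18 and 1.55 ± 0.45.

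In other genes noTrp replicate 1 stood alone and no call was made. *Ddit4*, an inhibitor of mTORC1, read 14, 31.5 and 23.0 CPM in the controls, 676 CPM in noTrp replicate 1 and 13.8 CPM in replicate 2 (adjusted p = 0.10). *Pdk4*, which shuts off pyruvate dehydrogenase, read 4.66, 3.17 and 3.83 CPM in the controls and 25.7 and 3.51 CPM in noTrp (adjusted p = 0.14). *Cux2* read 0.212, 2.09 and 1.04 CPM in the controls and 48.2 and 1.42 CPM in noTrp (adjusted p = 0.13). In each, replicate 2 lay within the controls or just under them. High values of these genes were also seen in other groups. *Ddit4* read 298 and 170 CPM in KO noTrp replicates 1 and 2 and 8.28 to 21.1 CPM in the other KO noTrp libraries, but 18.3 to 126 CPM in KO CTR and 72.6 to 240 CPM in WT noCys. *Cux2* read 48.4 CPM in KO noTrp replicate 1 and 0.494 to 6.78 CPM in the others, but 4.08 to 25.2 CPM in WT noCys. Further rises were also steeper in noTrp replicate 1. *Maff*, a small MAF transcription factor, read 73.0 and 16.4 CPM against 4.87 to 9.28 CPM in the controls, and *Btbd19* read 42.0 and 9.18 CPM against 1.78 to 8.25 CPM. *Maff* lost its call with noTrp replicate 2 alone (adjusted p = 0.22), and *Btbd19* also without WT CTR replicate 2 or 3 (adjusted p = 0.13 and 0.15).

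Mouse liver expresses many enzymes at different levels in males and females, under the control of growth hormone. Of 23 male-biased genes tested, 3 fell, where 1.5% of all genes did, and none rose. In the list 22 genes had a log2 fold change below 0, and the median was −0.60, made up of −1.65 with noTrp replicate 1 alone and −0.17 with replicate 2 alone. *Cyp4a12a*, an arachidonic acid hydroxylase, read 138, 145 and 179 CPM in the controls and 13.5 and 32.2 CPM in noTrp (log2 fold change −2.76 ± 0.42, adjusted p = 0.0034) and was called with each library alone. *Cyp4a12b* fell by 1.66, and *Elovl3* is given above. *Cyp4a12a* and *Cyp4a12b* are near-identical copies that may share reads. *Hsd3b5* and *Slco1a1* read 18.4 and 57.4 CPM in noTrp replicate 1 but 177 and 327 CPM in replicate 2, against 213 to 276 and 265 to 405 CPM in the controls, and did not pass the test. With replicate 1 alone 7 male-biased genes were called lower (1.99% of all genes were), and with replicate 2 alone 1 (0.307% of all genes). None of 11 female-biased genes tested was called (median 0.59). In the growth hormone and IGF axis *Ghr*, the growth hormone receptor, fell by 0.60 ± 0.15 (adjusted p = 0.036), but it was called in 0 of the 5 fits that leave out 1 library. *Igfbp1* rose, and *Igf1* had a log2 fold change of −0.24 ± 0.18.

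The lists that bear on the lack of an amino acid are read against the 1.7% of all genes that were called higher and the 15.3% that lay above all controls. Of the 13 liver ISR genes that the study's text names, 1 rose, *Psat1*, the phosphoserine aminotransferase of serine synthesis. It read 0.741, 0.618 and 0.232 CPM in the controls and 4.76 and 1.57 CPM in noTrp (log2 fold change 2.53 ± 0.67, adjusted p = 0.041), and it was called in 1 of the 5 fits that leave out 1 library, the one without noTrp replicate 2. The study chose this list on data that include these libraries, so its counts are not independent evidence. The median of the 13 was 0.47, with 12 above 0 and 4 above all controls. Of 28 other ISR genes tested, 2 rose, *Pck2*, the mitochondrial phosphoenolpyruvate carboxykinase, by 1.26 ± 0.29 (adjusted p = 0.024) and *Ppp1r15a*, the phosphatase subunit that ends the ISR, by 1.11 ± 0.28 (adjusted p = 0.035), 12 lay above all controls, and the median was 0.54. With noTrp replicate 1 alone 5 of these 28 were called higher (2.86% of all genes were), and with replicate 2 alone, or without WT CTR replicate 1 or 2, 0. *Asns*, asparagine synthetase, read 1.90, 1.62 and 1.16 CPM in the controls and 6.03 and 2.39 CPM in noTrp and did not pass the test (log2 fold change 1.43 ± 0.59, adjusted p = 0.20). *Ddit3*, which encodes CHOP, had a log2 fold change of −0.21 ± 0.31. *Fgf21*, the fasting and ISR hormone of the liver, was at 0.741, 0.232 and 0.928 CPM in the controls and 0.268 and 2.61 CPM in noTrp, with replicate 1 within the controls and replicate 2 above them (log2 fold change 1.24 ± 1.49, adjusted p = 0.71). None of 20 cytosolic tRNA synthetase genes tested was called, with a median of 0.15.

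Tryptophan breakdown and NAD synthesis gave no call among 31 genes tested, with a median log2 fold change of 0.06, by edgeR, while DESeq2 called 2. With noTrp replicate 1 alone 5 were called higher and 1 lower, where 2.86% and 1.99% of all genes were, and with replicate 2 alone 0. *Tdo2* split the noTrp libraries, at 2605 CPM in replicate 1 and 1281 CPM in replicate 2, against 1330, 1875 and 1525 CPM in the controls. *Cyp1a2*, a target of the aryl hydrocarbon receptor, whose ligands include tryptophan metabolites, read 815, 786 and 844 CPM in the controls and 253 and 577 CPM in noTrp and did not pass the test (log2 fold change −0.98 ± 0.29, adjusted p = 0.071). Among 31 genes of the breakdown of other amino acids 3 rose (1.7% of all genes did), *Gpt* and *Got1*, the alanine and aspartate aminotransferases, and *Gnmt*, the glycine N-methyltransferase. *Gpt* rose in step in both libraries, from 381, 466 and 426 CPM to 611 and 624 CPM (log2 fold change 0.54 ± 0.11, adjusted p = 0.011). *Got1* read 2086 CPM in noTrp replicate 1 but 574 CPM in replicate 2, against 281 to 498 CPM in the controls. *Gnmt* read 4622 and 2068 CPM, against 1436 to 1791 CPM, with log2 fold changes of 1.51 and 0.35 from each noTrp library alone. None of 8 urea cycle genes was called, with medians of 0.82 with replicate 1 alone and −0.15 with replicate 2 alone, though 5 of the 8 were called higher with replicate 1 alone. *Cth* itself read 286, 221 and 157 CPM in the controls and 451 and 108 CPM in noTrp (log2 fold change 0.34 ± 0.34, adjusted p = 0.65), so the noTrp libraries lay on either side of the controls.

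Of the 8 genes of the NRF2-dependent oxidative stress response (OSR) that the study's text names, chosen by it on data that include these libraries, 2 fell, where 1.5% of all genes did, and none rose. They were the glutathione S-transferases *Gstm2*, by 0.95, and *Gstm4*, by 0.78, members of a family with close copies. The direction of the list turned with the library, with 2 called higher, 0 lower and a median of 0.15 with noTrp replicate 1 alone, and 0 called higher, 2 lower and a median of −0.72 with replicate 2 alone. Among 26 endoplasmic reticulum chaperone and unfolded protein response genes 2 rose (1.7% of all genes did), and the medians with each noTrp library alone were 0.39 and 0.38. *Calr*, the chaperone calreticulin, read 770, 713 and 913 CPM in the controls and 1273 and 1542 CPM in noTrp (log2 fold change 0.82 ± 0.17, adjusted p = 0.016), and *Atf6b* rose by 0.66. None of 18 heat shock genes was called. Of 30 acute phase genes *Socs3* alone rose. The metallothioneins *Mt1* and *Mt2* did not pass the test (adjusted p = 0.078 and 0.079), though *Mt2* read 284 and 281 CPM in noTrp against 15.1, 76.1 and 31.9 CPM in the controls. Of 28 drug metabolism genes 3 rose, *Por*, *Cyp26b1* and *Cyp26a1*, and of 19 clock genes *Nfil3* rose, by 2.05, and *Clock* fell, by 0.64. *Cyp26a1* and *Nfil3* were again higher in replicate 1, at 51.6 and 71.8 CPM, than in replicate 2, at 12.6 and 13.9 CPM.

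**Figure D4:**
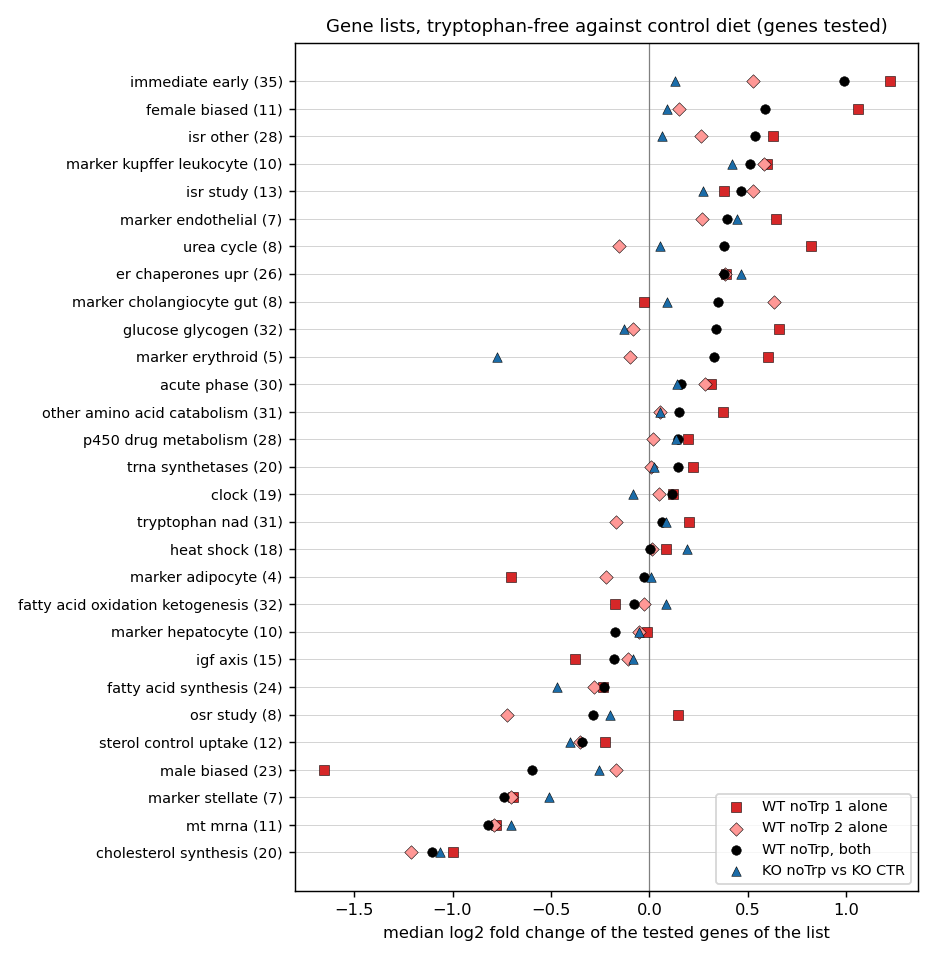
Median log2 fold change (x axis) of the tested genes of 29 of the 33 lists, with the number tested in brackets, for both WT noTrp libraries (black circles), noTrp replicate 1 alone (squares), replicate 2 alone (diamonds) and KO noTrp against KO CTR (triangles). The structural RNA, sex gene, muscle and pancreas lists are not drawn. Among the lists drawn, cholesterol synthesis is lowest in all but replicate 1 alone, where the male-biased list is lower. The male-biased, urea cycle, glucose and glycogen and OSR lists show wide gaps between square and diamond.

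None of the 11 mitochondrial mRNAs tested was called by edgeR, with both noTrp libraries or with either alone, and 3 were called by DESeq2. All 11 lay below the controls in both noTrp libraries, where 15.3% of all genes did, with a median log2 fold change of −0.82. All mitochondrial genes together took 6.51 to 7.51% of the counts in WT CTR and 3.70 to 3.89% in WT noTrp. The share was 4.49 to 7.29% in KO CTR and 3.41 to 4.79% in KO noTrp, where the ranges overlap. The median log2 fold change of the 11 mRNAs in KO was −0.70, and 1 was called lower there. *mt-Co1*, a subunit of cytochrome c oxidase, read 16604, 15494 and 9603 CPM in the controls and 8907 and 4249 CPM in noTrp.

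WT CTR replicate 3 stood apart in structural RNA, which poly(A) selection should leave out. A list of ribosomal, 7SK, Y and similar RNAs, which also holds the protein-coding *Lars2* (mitochondrial leucyl-tRNA synthetase, at 21095 CPM in that library and 466 to 1109 CPM in the 4 others), took 12.2% of its counts, against 0.987 and 1.25% in the other WT CTR libraries and 0.555 and 0.857% in WT noTrp. Of 17 such genes, 11 were called lower, with a median log2 fold change of −3.96. Without WT CTR replicate 3, 0 of 16 were called and the median was −0.56. *CT010467.1*, a ribosomal RNA copy, read 1967, 1091 and 70442 CPM in the controls and 746 and 1098 CPM in noTrp. Their 11 calls are among the 215 lower. Removing these genes from the table left 445 calls in all, 250 higher and 195 lower. The largest falls of all, *Gm24265* (log2 fold change −8.95) and *Gm25099* (−8.77), are outside the list, and their log2 fold changes in KO were −0.77 and −1.38. Which falls outside the list depend on WT CTR replicate 3 in the same way was not tested.

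Hepatocyte markers were abundant in all 5 libraries, as the liver label states. The summed level of 10 hepatocyte markers was 91295 to 104780 CPM in the controls and 100009 and 77056 CPM in noTrp, and 1 of the 10, *Ttr*, fell, by 0.52, a call that was lost whichever library was left out. Of 7 stellate cell markers 1, *Reln*, fell (by 0.84 ± 0.19, adjusted p = 0.023), and 6 lay below the controls without overlap. Among all genes 1.5% were called lower and 1.7% higher, and 15.3% lay below, and 15.3% above, all controls. Their summed level was 310 to 348 CPM in the controls and 198 and 248 CPM in noTrp. In bulk liver, fewer cells of a type and less RNA per cell cannot be told apart. Of 7 endothelial markers *Lyve1* rose, by 1.40, with 1.83 from noTrp replicate 1 alone and 0.77 from replicate 2 alone. Of the 7, 5 lay above the controls, and the list summed to 116 to 156 CPM against 220 and 152 CPM. Of 10 Kupffer cell and leukocyte markers tested none was called and 5 lay above the controls, with sums of 115 to 176 CPM against 209 and 249 CPM. *Alas2*, of 5 erythroid markers tested, fell by 0.78 and also lost its call whichever library was left out, and the sum over the list was 156 to 352 CPM in the controls and 389 and 209 CPM in noTrp. No marker of bile duct and gut, adipocytes, muscle or pancreas was called. In the adipocyte list 3 of 8 genes were at 0 in all 5 libraries, in the muscle list 3 of 7 and in the pancreas list 6 of 8. The part of other cell types in the results was not tested.

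The same change of diet in KO livers uses 9 other libraries, in which the targeted gene *Cth* read 10.5 to 15.0 CPM (CTR) and 9.60 to 13.7 CPM (noTrp). There 269 genes were called (1.87%), 112 (0.779%) higher and 157 (1.09%) lower. Of the 459 genes called in WT, 437 had the same sign in KO (95.2%), against 69.0% of all genes tested, and 84 were also called in KO (18.3% of the calls in WT and 31.2% of those in KO), none with the opposite sign. Those also called were 24 of the 244 higher and 60 of the 215 lower. The median log2 fold change in KO was 0.30 for the genes called higher in WT and −0.38 for those called lower. Across all genes tested, which are not independent replicates, the log2 fold changes in WT and KO correlated at r = 0.455. All 33 genes called with each WT noTrp library alone had the same sign in KO, and 19 were called there, 7 of the 18 higher and 12 of the 15 lower.

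In sterol synthesis 17 of 20 genes were called lower in KO, with a median of −1.07. *Spon2* fell in KO from 7.77, 8.20 and 9.13 CPM (lowest, median and highest of 4) to 1.33, 1.64 and 2.17 CPM (of 5), a log2 fold change of −2.32 (adjusted p = 4.2e-06), and *Chrna4* by 4.34 (adjusted p = 8.8e-05). *Cyp26b1* and *Psat1* rose in KO by 1.5 and 2.04. Of the 35 immediate early genes tested, 0 were called in KO and their median was 0.13. *Nr4a1* read 0.713 to 2.04 CPM in KO CTR and 1.19 to 2.92 CPM in KO noTrp. *Dusp1* had a log2 fold change of −0.65 and *Txnip* of 0.58 in KO, neither called. Endoplasmic reticulum chaperone genes had a median of 0.47 in KO, and 11 of 26 were called higher there.

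Whether the diet acted differently in the 2 genotypes was tested directly, as the difference of the 2 log2 fold changes. No gene was called by edgeR (0%), with 819 at an unadjusted p under 0.05, while DESeq2 called 18 and limma-voom 0. Without WT noTrp replicate 2 the count was 67. For *Nr4a1* the difference, WT minus KO, was 4.64 ± 1.07 (SE; adjusted p = 0.36), for *Dusp1* 3.17 ± 0.60 (adjusted p = 0.33), for *Txnip* 1.97 ± 0.47 (adjusted p = 0.37) and for *Spon2* −0.40 ± 0.35 (adjusted p = 0.97). The calls made in 1 genotype and not in the other are thus not shown to differ between them.

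**Figure D5:**
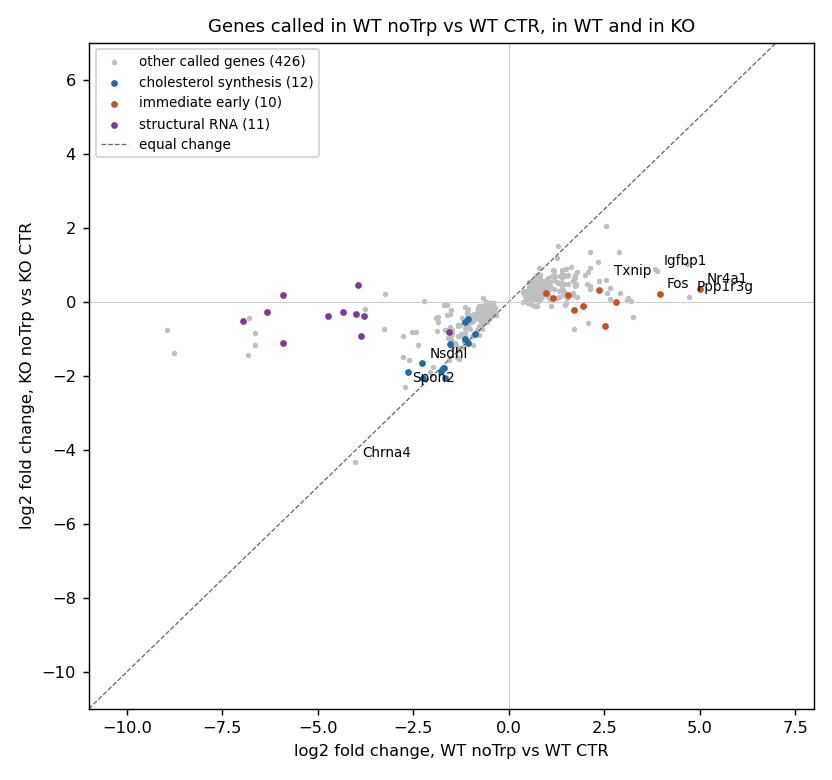
Each point is 1 of the 459 genes called in WT noTrp against WT CTR, with its log2 fold change in WT (x axis) and in KO noTrp against KO CTR (y axis); the dashed line marks equal change. Cholesterol synthesis genes lie near the line at the lower left, while immediate early genes and structural RNA genes lie near 0 on the y axis.

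Against WT livers on the cysteine-free diet, 23 genes were called in WT noTrp (0.16%), 11 higher (0.0765%) and 12 lower (0.0835%), in a comparison that uses no control library. *Nsdhl*, at 19.9 to 25.7 CPM in the 4 noCys libraries, was lower in noTrp by 1.65 on the log2 scale (adjusted p = 0.011), and *Tm7sf2* by 0.94. *Txnip* (log2 difference 1.89), *Socs3* (1.83) and *Calr* (0.95) were higher than in noCys. *Lepr*, the leptin receptor, read 18.2 and 15.1 CPM in noTrp and 2.97 to 5.31 CPM in noCys (log2 difference 2.06 ± 0.39, adjusted p = 0.030), and 1.90 to 4.94 CPM in the controls. *Fam25c* read 6.90 and 11.8 CPM in noTrp and 25.1 to 57.9 CPM in noCys (log2 difference −2.27 ± 0.35, adjusted p = 0.011). *Orm1*, the acute phase protein orosomucoid, read 528 and 381 CPM in noTrp and 928 to 2664 CPM in noCys (log2 difference −1.78 ± 0.32, adjusted p = 0.023), where the controls read 572 to 700 CPM. *Elovl3* was lower by 2.14, and *Nr4a1* and *Olig1* were higher by 4.19 and 2.47, the last with 12.5 CPM in noTrp replicate 1 and 3.36 CPM in replicate 2. With noTrp replicate 2 alone 10 genes were called, with replicate 1 alone 64, and without single noCys libraries 9 to 25. *Fam25c*, *Elovl3*, *Orm1*, *Lepr*, *Olig1* and *Nr4a1* all lost their call with noTrp replicate 2 alone.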

How the data were processed

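RNA-seq of 21 mouse liver libraries was used, as a single table of read counts per gene. Per the study's methods, RNA from TRIzol extraction went through poly(A) selection and a NEBNext Ultra library kit, and paired-end reads were aligned by the authors to GRCm38 with HISAT2. HISAT2 2.1.0 and HTSeq 0.11.0 are the versions in the submitters' processing notes. The deposited counts are raw whole numbers made by the authors with htseq-count, without normalization; the annotation release and strand setting are not given in the sources used here. The authors tested differences with DESeq2, and none of those results was used. 1 column matched no sample and was not used. Of 46078 Ensembl identifiers, 45143 matched GENCODE M21 (same build), which gave symbols and positions. Promoter sequences are from RefSeq (GRCm38.p6).

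Groups came from sample titles. Total counts were 9410589, 13268946 and 9764060 in WT CTR replicates 1 to 3 and 15362717 and 12630260 in WT noTrp replicates 1 and 2. The analysis used edgeR 4.0.16 (R 4.3.3). Genes passed filterByExpr over 6 groups (minimum count 10, minimum total 15), which left 14370 of 26504 with any count. All 21 libraries entered a one-way model over 6 groups with TMM scaling, since 2 noTrp libraries alone give little hold on the spread. Each contrast had a two-sided quasi-likelihood F-test with Benjamini-Hochberg adjustment over all genes tested, and genes under 0.05 are called; every adjusted p given is from this test unless another tool is named. Values per library are TMM-scaled CPM. The titles call replicates biological and name no animal or day, so p-values measure the spread between libraries. That spread was estimated for each gene over all 6 groups. Every call thus assumes that WT noTrp varies like the other groups, though its 2 libraries differed most. The fits with 1 noTrp library assume this too, with no spread from WT noTrp itself. Each SE is the size of the log2 fold change divided by the square root of F, so it rests on the same shared spread. Scripts were tested on simulated data.

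Genes were named by rule: the 8 largest rises and 8 largest falls among genes called, with a mean log2 CPM over 2, groups not overlapping, a symbol, and neither predicted nor structural RNA genes; the 10 largest each way among those also called with each noTrp library alone; and members of 33 lists. Some genes that the rule takes are not reported here. The members and lists were chosen with earlier results of these data known, and lists are described by counts and medians without a test. Genes outside the rule, such as the rest of the 33 genes called with each noTrp library, were named once their values were known. The alternatives tried were DESeq2 1.42.0, limma-voom with quality weights (limma 3.58.1), other scalings, no filter, a fit of the compared groups alone, a replicate block, and leaving out each library.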

Additional observations from a re-analysis of the deposited data

Results flagged for a closer look

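In 62 groups of 4 to 10 samples, 4 had 1 library that stood apart from the rest by Dixon's test, where chance gives about 1 in 20 (5%). All 4 were in KO libraries. *Btbd19* read 7.63 CPM in KO CTR replicate 1 and 2.19 to 3.07 CPM in the other KO CTR libraries. *Aqp8*, a water channel that was also lower in WT noTrp (log2 fold change −2.37 ± 0.47), read 112 CPM in KO CTR replicate 1 and 47.5 to 50.8 CPM in the others. *Acss2* read 147 CPM in KO CTR replicate 1 and 102 to 108 CPM in the others. *Klf11* read 12.0 CPM in KO noTrp replicate 5 and 8.99 to 9.82 CPM in the other KO noTrp libraries. No WT group could be tested in this way except WT noCys, since the WT CTR and WT noTrp groups hold 3 and 2 libraries.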

How the results depend on the processing

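The count of genes called in WT noTrp against WT CTR, 459, was 796 with DESeq2, 32 with limma-voom and quality weights, 3 in a fit of these 5 libraries alone, 186 with a replicate block, and 99 to 728 without 1 library. RLE scaling (456), library totals (502), no filter (505) and removal of structural RNA genes (445) kept it within 1.5 times. Against WT noCys the 23 calls were 143 with DESeq2, 0 with limma-voom, 0 in a fit of these groups alone, 50 without a filter, 20 with the replicate block and 9 to 64 without 1 library, with 1397 genes at an unadjusted p under 0.05. The difference between the genotypes, 0 calls, gave 18 with DESeq2, 10 without a filter and 0 to 67 without 1 library. In KO the 269 calls were 580 with DESeq2, 611 with limma-voom, 136 in a fit of the compared groups alone, 218 with the block and 105 to 449 without 1 library. The cause of these moves was not tested, beyond that the fits of compared groups alone and those without 1 library use fewer samples. The log2 fold change of *Cth* turned to −0.070 under limma-voom. With noTrp replicate 2 alone it turned negative, against a rise with replicate 1 alone, for *Pdk4* (−0.13 and 2.73), *Ddit4* (−0.73 and 4.88), *Tdo2* (−0.30 and 0.73), *Cth* (−1.04 and 1.03) and *Irs2* (−0.92 and 2.70). For *Fgf21* it was −1.11 with replicate 1 alone and 2.13 with replicate 2 alone. None of these 6 genes was called with all 5 libraries. No other log2 fold change of a named gene that was recomputed changed sign. The titles number the replicates, and deviations of same-numbered libraries correlated at −0.24 to −0.01 between WT CTR and WT noTrp. With 2 noTrp libraries the deviations mirror each other, so these values cannot decide whether the numbers pair the libraries. No pairing by number is described in the sources used here, and the block is given only as an alternative fit. With 2 libraries in WT noTrp, for a gene that differs between them as *Ppp1r3g* does, the diet and the single library cannot be told apart.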

Other observations

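Of 80 genes for cytosolic ribosomal proteins tested, a group chosen by symbol after its values were seen, 11 were called higher in WT noTrp (13.8%, where 1.7% of all genes were) and 0 lower, and 77 had a log2 fold change above 0. The 11 called rose by 0.46 to 0.67 on the log2 scale. The median over the 80 was 0.28, with 0.25 from noTrp replicate 1 alone and 0.31 from replicate 2 alone, and in 52 genes both noTrp libraries lay above all 3 controls, against 15.3% of all genes. *Rps3a1* read 277, 328 and 269 CPM in the controls and 478 and 446 CPM in noTrp (log2 fold change 0.67 ± 0.13, adjusted p = 0.013). *Rps20* read 225, 231 and 224 CPM in the controls and 311 and 355 CPM in noTrp (log2 fold change 0.55 ± 0.14, adjusted p = 0.032). The median was 0.28 with RLE scaling and 0.38 with library totals alone. The count called was 1 without WT CTR replicate 1, 5 without replicate 2, 0 without replicate 3, and 6 or 0 with noTrp replicate 1 or 2 alone. It was 17 with DESeq2, 2 with the replicate block, and 0 with limma-voom or in a fit of the 5 compared libraries alone. In KO the median was 0.01 and 0 of the 80 were called. Ribosomal protein genes have many processed copies in the genome, so reads may be shared with pseudogenes.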
